A study of Oryzias latipes with 4 samples.

Results

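Growth hormone (somatotropin), prolactin and somatolactin are related pituitary hormones, and 4 genes of this family were followed here in the medaka, Oryzias latipes, a small freshwater fish that breeds by day length. The members were the features whose BLAST description carries the gene tag of somatotropin (LOC101171460), somatolactin (LOC100049402), prolactin-1 (LOC101172582) or prl, a second gene described as a prolactin precursor. They comprised 5 of 93896 features and 4 of the 68193 genes and unnamed features formed by summing FPKM over features of one gene. All 4 genes reached the minimum mean of 1 FPKM and were among the 17252 tested.

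All fish were females from a local dealer that had been kept under short days. One group (SD) stayed under short days, and the other (LD) was sampled 16 h after being moved to long days. The tissue was a block that joins the ventral forebrain, the hypothalamus and the pituitary, taken from 6 fish in each condition, and each group had 2 libraries (SD 1, SD 2, LD 1 and LD 2). The hour of sampling, the age of the fish and the day lengths are not given in the labels. Nothing in the labels says whether the 2 libraries of a group came from separate fish, so p-values measure the spread between libraries, which may be technical. In such a block, fewer hormone cells and less hormone RNA per cell cannot be told apart.

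The hormones of this family are secreted proteins folded as a bundle of alpha helices. They act through cytokine-type receptors that signal by JAK kinases and STAT transcription factors. In fish, growth hormone drives body growth, partly through insulin-like growth factors, and prolactin is known for salt and water balance in fresh water. Somatolactin is a fish hormone of the posterior part of the pituitary, known in medaka for its effect on pigment cells. The cells that make all of these hormones depend on the transcription factor encoded by pou1f1.

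Relative depth was estimated from the most frequent low product of FPKM and feature length in kb in each library, taken as 1 step. A smaller step was read as a deeper library. By this measure SD 2 was the deepest library, at 1.47 times the depth of SD 1, with LD 1 at 1.10 and LD 2 at 1.09 times. The estimate is rough, since at most 9.92% of low values fell on whole steps. Between 37506 and 39789 features were above 0 per library. All 7 pituitary markers looked for (pomc, cga, lhb, fshb, tshb, pou1f1 and pitx1) were present in every library, as were neuronal and hypothalamic markers, while avp was not matched. Myelin markers summed to 1282 FPKM in LD 1 and to 621 to 814 in the other 3 libraries.

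The gene models carried by the hits were not used in the selection, and they share only part of their layout. The somatotropin feature spans chromosome 8 from 73228 to 76797 on the plus strand, and its hit has 6 coding segments and 210 codons before the stop. Prolactin-1 lies on the same chromosome and strand from 23589932 to 23592639, 23.5 Mb away, with 5 coding segments and 213 codons. Somatolactin lies on chromosome 13 from 26483318 to 26486103 on the plus strand, with 5 segments and 230 codons. The prl feature lies on chromosome 23 from 11261009 to 11266784 on the minus strand, with 4 segments and 227 codons.

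The last 3 coding segments are close in size in somatolactin (114, 180 and 195 bases), prolactin-1 (108, 183 and 192 bases) and prl (108, 180 and 195 bases). In somatotropin the third segment has 117 bases and is followed by 144, 147 and 63 bases, which makes it the only member with 6 segments. The first coding segment has 13 bases in somatolactin, 28 in somatotropin and 46 in prolactin-1, whereas the first in the prl model has 201 bases. Coordinates are those of the deposited table, for which no build is named.

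**Figure D1:**
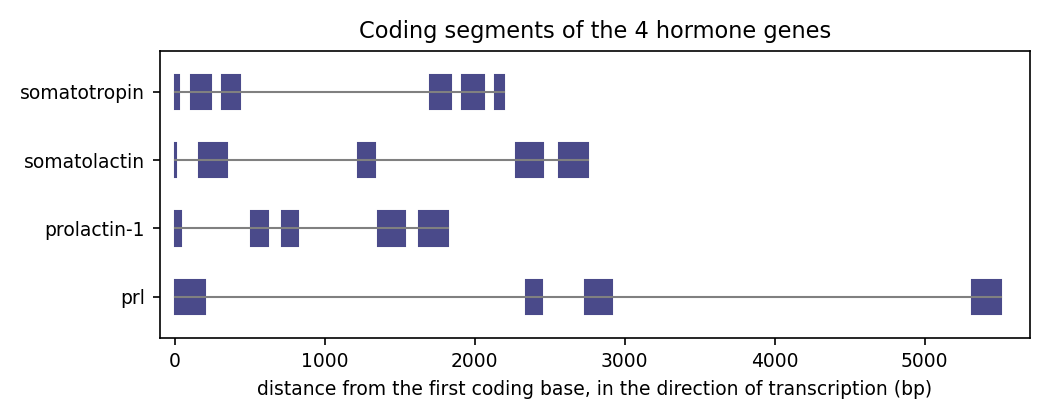
Coding segments (boxes) and introns (lines) of the 4 hormone genes, drawn to scale by distance in bp from the first coding base in the direction of transcription. Somatotropin has 6 segments, somatolactin and prolactin-1 have 5, and prl has 4 over the longest span.

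Prolactin-1 was the most abundant of the 4 transcripts in every library, followed by somatotropin, somatolactin and prl. FPKM is scaled to feature length, so these levels can be set side by side. Over the 4 libraries prolactin-1 lay between 1825 and 3899.6 FPKM, somatotropin between 263 and 914, somatolactin between 60.7 and 141, and prl between 0.0648 and 3.36. No 2 neighbours in this order overlapped in any pair of libraries. Among all genes and features of a library, prolactin-1 ranked between the second and the seventh place by FPKM. Somatotropin ranked 19 and 22 in SD 1 and SD 2, and 204 and 184 in LD 1 and LD 2. The 4 genes together held 1.07% and 1.03% of all FPKM in SD 1 and SD 2, and 0.467% and 0.845% in LD 1 and LD 2.

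**Figure D2:**
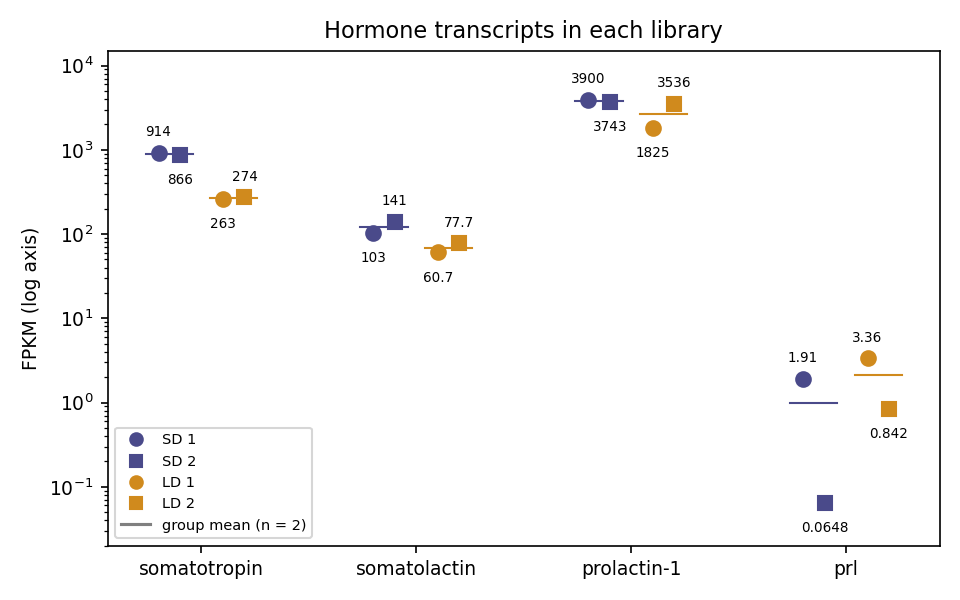
FPKM (log axis) of the 4 hormone genes in each library, with circles and squares for libraries 1 and 2 of a group and a line for the group mean (n = 2). Somatotropin separates the groups with little spread (914 and 866 against 263 and 274), whereas prolactin-1 is low in LD 1 alone (1825) and prl scatters from 0.0648 to 3.36.

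Somatotropin, the growth hormone, was lower in LD than in SD. SD 1 held 914 FPKM and SD 2 held 866, whereas LD 1 held 263 and LD 2 held 274. The libraries within a group lay within 1.05-fold (SD) and 1.04-fold (LD) of each other, and every SD library was 3.17 to 3.47 times every LD library. The group means were 889.9 ± 33.4 and 268 ± 7.5 FPKM (standard deviation, n = 2 each). The log2(FPKM + 1) difference was -1.73 with a standard error of 0.07, which is a 2.94-fold to 3.72-fold lower level by its 95% interval. This was the smallest of 17252 p-values and passed the threshold of 0.05 (limma adjusted p = 0.0248). In that comparison 0.0116% of tested genes were called, and somatotropin was the only member among them. The difference stayed between -1.76 and -1.69 when any 1 library was left out, but the call was lost each time. Over all alternatives the limma adjusted p ran from 2.72e-09 to 0.439. The lowest came from scaling to pomc, whose limit is given below.

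Somatolactin had lower values in LD but did not pass the test. SD 1 had 103 FPKM and SD 2 had 141, against 60.7 for LD 1 and 77.7 for LD 2. Both LD libraries lay below both SD libraries. The same held for prolactin-1 as well as somatotropin, so 3 of the 4 members were lower in LD without overlap, where 20.8% of all tested genes were. Pairs of SD and LD libraries differed 1.33-fold to 2.32-fold, and libraries of one group 1.36-fold (SD) and 1.28-fold (LD). The log2 difference of somatolactin was -0.80 (standard error 0.19, 95% interval -1.29 to -0.32, unadjusted p = 0.00778, limma adjusted p = 0.789), which ranked 164 by p among all tested genes.

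Prolactin-1 was low in 1 library, LD 1. SD 1 had 3899.6 FPKM and SD 2 had 3743, which lie within 1.04-fold of each other, while LD 1 had 1825 against 3536 for LD 2. The LD libraries were 1.94-fold apart, while LD 2 was 1.06-fold below the lower SD library. The log2 difference was -0.59 with a 95% interval of -1.38 to 0.21 (limma adjusted p = 0.801). It was -0.11 without LD 1 and -1.07 without LD 2. LD 1 also held the lowest lhb level (53.9 FPKM, against 98.3 to 122 in the other libraries) and the highest sum of myelin markers given above. The summed pituitary markers were not lowest in LD 1, at 1934 FPKM against 1715 in LD 2, but most of this sum was pomc (1384 and 1165 FPKM). The geometric mean of pomc, cga, lhb, fshb and pitx1, taken as a factor for each library, was lowest in LD 1. This factor was 0.845 in LD 1 and 0.871 in LD 2, and higher in both SD libraries. Of its genes, only lhb was lower in LD 1 than in LD 2. The part of any of these in the low prolactin-1 value was not tested. All prolactin-1 signal came from 1 feature of 1311 bases. The other feature with its tag, MEDAKA047304, was listed at 0 in every library.

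The prl transcript was low in every library. SD 1 had 1.91 FPKM, SD 2 had 0.0648, LD 1 had 3.36 and LD 2 had 0.842, and the groups overlapped. Multiplied by the feature length in kb and divided by the step of the library, as defined for depth, these values correspond to 40.0, 2.0, 77.4 and 19.2 steps. The SD 2 value is thus 2.0 steps above 0. The log2 difference of 0.69 had a 95% interval of -0.93 to 2.30 (limma adjusted p = 0.865), and it turned to -0.04 without SD 2 and was 1.65 with a pseudocount of 0.1. Libraries of one group differed 29.5-fold (SD) and 3.99-fold (LD), so no difference was detectable at this level.

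**Figure D3:**
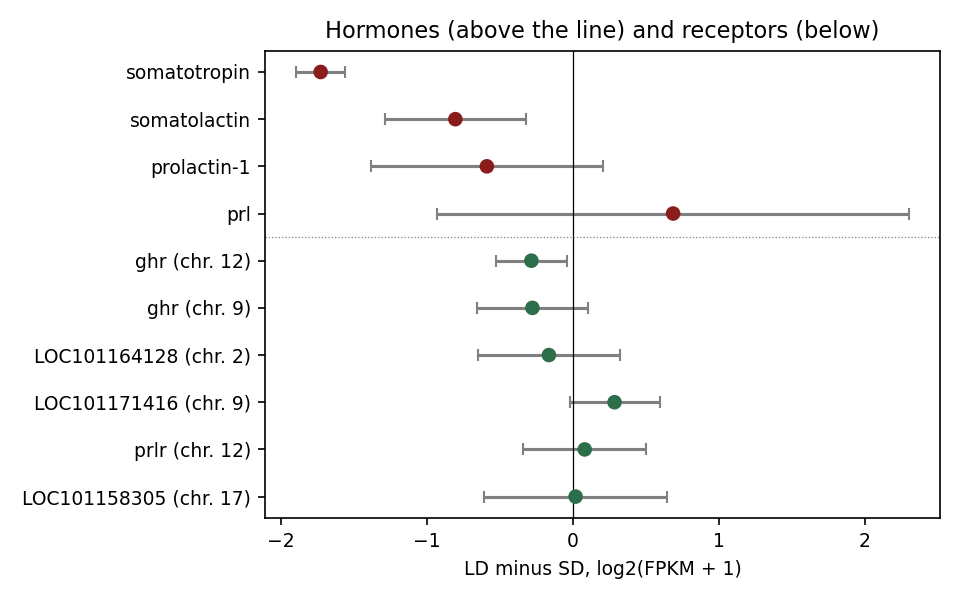
LD minus SD difference in log2(FPKM + 1), with 95% intervals from limma, for the 4 hormone genes (above the dotted line) and the 6 receptor genes (below it). The interval of somatotropin is the narrowest of the hormones and lies far from 0, at -1.73, and the receptors lie between -0.28 and 0.29.

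Within a library, somatotropin was also lower relative to the other members in LD. Such ratios of plain FPKM do not depend on how the library was scaled. The ratios on the log2(FPKM + 1) scale depend on it slightly, and those to prl, which was low, more strongly. Somatotropin was 8.83 and 6.15 times somatolactin in SD 1 and SD 2, and 4.33 and 3.52 times in LD 1 and LD 2. Against prolactin-1 it stood at 0.234 and 0.231 in SD, and at 0.144 and 0.0773 in LD. Both ratios were lower in each LD library than in each SD library. On the log2(FPKM + 1) scale the ratio to somatolactin differed by -0.92 (standard deviation 0.37 among SD and 0.21 among LD libraries) and the ratio to prolactin-1 by -1.14 (0.01 and 0.63). The latter was -0.69 without LD 2 and -1.59 without LD 1.

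The exact two-sided permutation test gave p = 0.333 for both ratios, which is the smallest value that 2 against 2 libraries allow, so this design cannot reach the threshold. Over the 6 pairs of members compared, the Benjamini-Hochberg adjusted p was 0.667 for each (exact permutation). Somatotropin over prl was lower in LD without overlap too, with a difference of -2.41 (-3.38 with a pseudocount of 0.1, and -3.10 to -1.73 with 1 library left out). The ratios of somatolactin to prolactin-1 (-0.22), somatolactin to prl (-1.49) and prolactin-1 to prl (-1.28) overlapped between the groups. With 1 library left out, the ratios of somatolactin and of prolactin-1 to prl ran from -2.44 to -0.55 and from -2.37 to -0.18. That of somatolactin to prolactin-1 changed sign without SD 2 (0.03) and without LD 2 (0.09). As a share of the summed FPKM of the 4 genes, somatotropin made up 18.2% to 18.6% in SD and 7.03% to 12.2% in LD. Prolactin-1 made up 78.8% to 79.3% in SD and 84.8% to 90.9% in LD.

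**Figure D4:**
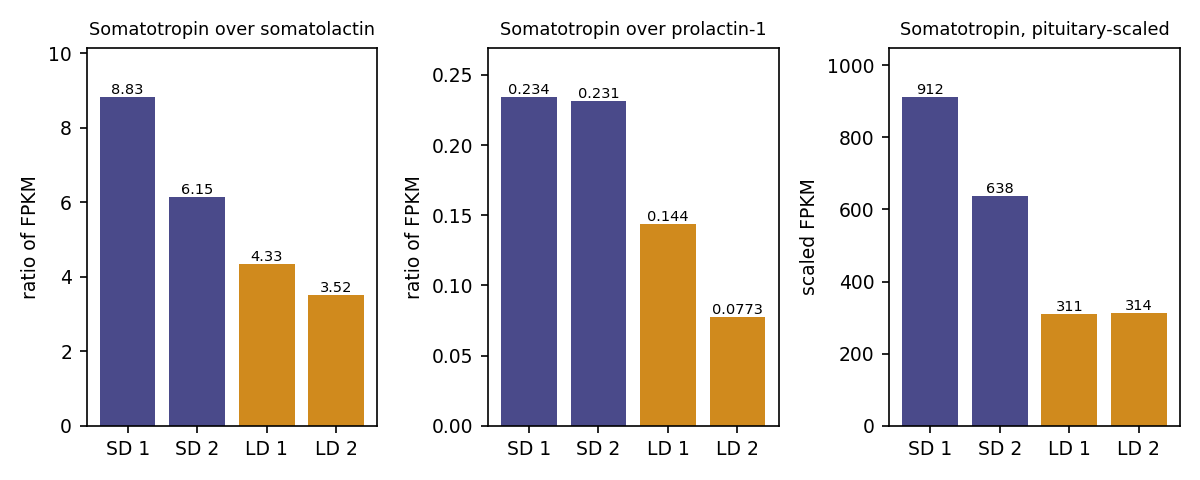
Ratio of somatotropin FPKM to somatolactin and to prolactin-1 in each library, and somatotropin FPKM after division by the level of pituitary genes. In all 3 panels both LD bars are below both SD bars, with a scaled level of 912 and 638 in SD against 311 and 314 in LD.

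Other pituitary genes also had lower mean values in LD. The 8 genes that match the 7 pituitary markers all had lower means in LD, 4 of them without overlap where 20.8% of all tested genes were, and none passed the threshold. For some the lower mean rested on SD 2. In SD 1, fshb (8.19 FPKM, against 9.35 and 8.97 in LD) and LOC101171658 (52.7, against 64.1 and 72.9) were below both LD libraries. The SD 1 value of cga (347) lay between those of LD 1 (393) and LD 2 (339). The summed level of all 8 genes was 2142 and 2698 FPKM under SD, and 1934 and 1715 under LD. Somatotropin was therefore also divided by the geometric mean of pomc, cga, lhb, fshb and pitx1 in each library. Its scaled level came to 912 for SD 1 and 638 for SD 2, with 311 for LD 1 and 314 for LD 2, a 2.48-fold lower level in LD, and it was again called (limma adjusted p = 0.00142), among 203 genes called under that scaling. Divided by pomc alone, a scaling added after the data were seen, it was 2.85-fold lower and still called. An error in a library's scaling factor is shared by all genes, which limma treats as independent. Calls and limma p-values under both scalings therefore overstate the evidence. The standard error of somatotropin was 0.29 when scaled to the pituitary genes, against 0.07 unscaled. Scaled somatolactin was at 103 and 104 in SD and at 71.8 and 89.3 in LD (1.29-fold lower, without overlap), but with pomc alone its groups overlapped. Scaled prolactin-1 overlapped between the groups under both. Under these scalings the median difference of all tested genes was 0.38 and 0.18 on the log2 scale. The scaled differences are thus relative to the pituitary genes and not to all genes.

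Hormones of other pituitary cells were counted as a list of 9 genes, of which 8 were tested. None passed over all genes. The log2 difference was below 0 for 6 and above 0 for 2, and 2 of the 8 were lower without overlap, near the 20.8% of all tested genes. The median difference was -0.38, against -0.01 over all tested genes, and it was 0.11 without SD 2. The most abundant was pomc, the precursor of corticotropin and melanocortins, at 1579 and 1374 FPKM under SD and 1384 and 1165 under LD. The shared alpha subunit cga was at 347 and 816 FPKM under SD and 393 and 339 under LD, and the thyrotropin beta-like gene LOC101171658 at 52.7 and 281 against 64.1 and 72.9. In both, SD 2 stood apart. Thyrotropin beta (LOC105354380) was at 16.4 and 34.5 FPKM under SD and 1.154 and 1.303 under LD. Both LD values were far below both SD values, and the difference of -3.48 was the largest of the list (limma adjusted p = 0.188). It was chosen for mention after its values were seen. Scaled to the pituitary genes, 4 of which are in this list, the list's median was 0.06 and 1 gene passed. Scaled to pomc the list's median was -0.16. The median of all tested genes was 0.38 and 0.18 under these scalings.

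None of the 14 tested transcription factors of the pituitary lineages passed over all genes. Since the block also holds forebrain and hypothalamus, the RNA of these genes need not come from the pituitary. The log2 difference was below 0 for 9 and above 0 for 5. In LD, 8 were lower without overlap, where 20.8% of all tested genes were, and 2 were higher without overlap. An unadjusted p under 0.05 was found for 8, of which 7 were lower and 1 higher, and for 6.32% of all tested genes. The higher one was gata2, a factor of gonadotrope and thyrotrope cells in mammals, named after its values were seen. It was at 1.10 and 1.23 FPKM under SD and 2.66 and 2.85 under LD, and its difference of 0.79 was the largest of the list in size (limma adjusted p = 0.673). The median difference of the list was -0.31, and it was -0.17 without SD 2. The gene pou1f1 itself had 29.1 FPKM for SD 1 and 46.2 for SD 2, with 21.6 for LD 1 and 23.8 for LD 2 (difference -0.67, limma adjusted p = 0.789). Both LD values lay below both SD values, and SD 2 was the highest library. The other most abundant members were neurod1 (61.6 and 56.9 against 43.3 and 50.1 FPKM) and isl1 (30.2 and 30.6 against 33.8 and 30.3 FPKM). Scaled to pituitary genes, which include pitx1 of this list, the list's median was 0.05 and 1 gene passed. The median of all tested genes was then 0.38.

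Hypothalamic regulators of hormone release showed no common direction. Of 31 genes matched, 26 were tested, 13 were higher and 13 lower in LD, none passed, and the median difference was 0.00. The most abundant, somatostatin-1 (LOC101157910), an inhibitor of growth hormone release, was at 127 and 141 FPKM under SD and 138 and 132 under LD. A receptor for the releasing peptide PACAP (LOC101163161) was at 108 and 99.9 against 98.9 and 103 FPKM, and trhde, an enzyme that degrades thyrotropin-releasing hormone, at 115 and 114 against 107 and 116. All 3 overlapped between the groups. Other PACAP receptor genes, mentioned after their values were seen, did not overlap, and none passed. LOC101168197 was lower in LD (16.0 and 17.6 against 11.6 and 11.8 FPKM), whereas LOC101159138 and LOC101159384 were higher.

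Further genes of this list were named for their role, after their values were seen. Somatoliberin, encoded by ghrh and the releasing hormone for growth hormone, was at 8.63 and 9.53 FPKM under SD and 6.98 and 6.06 under LD. Both LD libraries were lower, with a difference of -0.42 and a limma adjusted p of 0.789 (unadjusted p = 0.0133). Its receptor gene ghrhr overlapped between the groups, at 11.8 and 11.6 against 12.9 and 11.0 FPKM. The PACAP gene adcyap1 was at 20.1 and 23.6 FPKM under SD and 26.3 and 25.8 under LD (difference 0.25, limma adjusted p = 0.789). The gene drd2 encodes a receptor through which dopamine inhibits prolactin release, and it overlapped at 13.1 and 11.8 against 12.4 and 11.4 FPKM. Another D2 dopamine receptor gene, LOC101171193, overlapped at 7.46 and 9.29 against 8.07 and 6.99 FPKM. The gene th, for tyrosine 3-monooxygenase, was lower in both LD libraries, at 21.2 and 20.7 against 18.8 and 15.6 FPKM. Its difference was -0.28 (limma adjusted p = 0.789). In all, 7 of the 26 tested genes did not overlap between the groups, where 37.1% of all tested genes did not.

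The receptors of the family were present at low levels in the block, and none of the 6 passed. The growth hormone receptor gene ghr on chromosome 12 (gene ID 100144349) was at 7.41 and 7.63 FPKM under SD and 6.03 and 5.96 under LD. A second ghr on chromosome 9 (gene ID 100125809) was at 2.50 and 2.89 against 2.06 and 2.02 FPKM. For both, the LD libraries lay below the SD libraries, with differences of -0.28 and -0.28 (limma adjusted p = 0.789 and 0.804). Of the prolactin receptor genes, LOC101171416 was at 3.30 and 3.68 FPKM under SD and 4.45 and 4.49 under LD (difference 0.29, limma adjusted p = 0.793). The other 3 overlapped between the groups. LOC101164128 was at 5.60 and 6.76 against 6.48 and 4.45 FPKM, prlr at 2.33 and 1.88 against 2.44 and 2.12, and LOC101158305 at 2.84 and 1.53 against 2.31 and 2.02. Of the 6 receptor genes, 3 did not overlap between the groups (2 lower and 1 higher in LD), where 37.1% of all tested genes did not. The median difference of the list was -0.07, and it was 0.08 without LD 2.

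**Figure D5:**
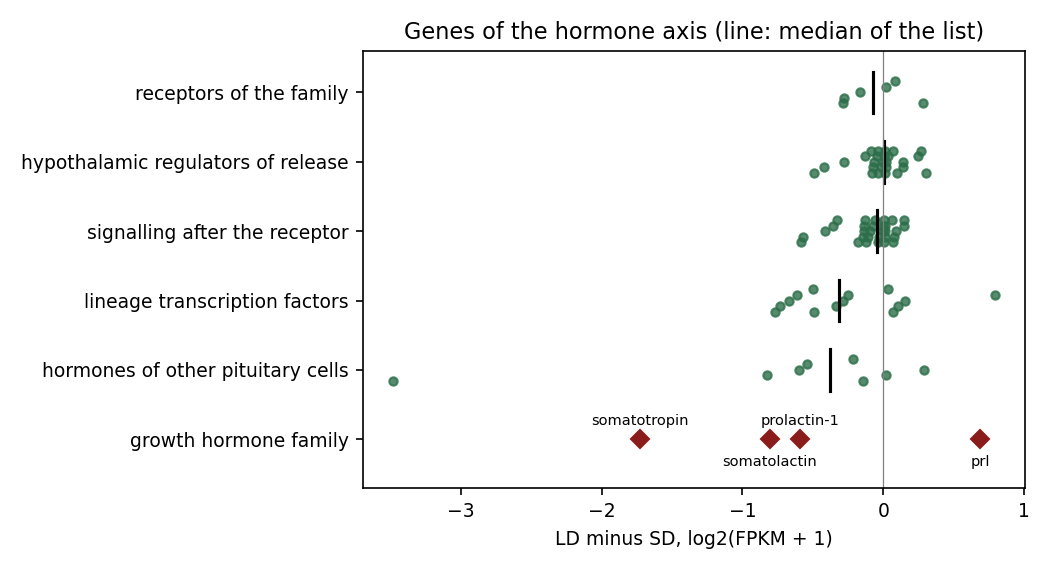
LD minus SD difference in log2(FPKM + 1) for each tested gene of 5 lists (points, with a black line at the list's median) and for the 4 hormone genes (diamonds). Medians are -0.07 for receptors, 0.00 for hypothalamic regulators, -0.05 for signalling after the receptor, -0.31 for lineage transcription factors and -0.38 for other pituitary hormones, and the point near -3.5 is thyrotropin beta at -3.48.

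Genes that act after the receptor had differences from -0.58 to 0.15. Of 39 matched, 30 were tested, 11 were higher and 19 lower in LD, none passed, and the median difference was -0.05 (-0.10 without LD 1). Of the tested genes, 12 did not overlap between the groups (9 lower and 3 higher in LD), where 37.1% of all tested genes did not. An unadjusted p under 0.05 was found for 3. The list caught igf2 mRNA-binding protein genes by description as well. By the rule of abundance, igfbp2, a binding protein for insulin-like growth factors, was at 36.1 and 40.2 FPKM under SD and 41.2 and 43.4 under LD, and igfbp4 at 29.6 and 38.9 against 36.3 and 35.2. The first was higher in both LD libraries, and the second overlapped. Named for their role after the values were seen, STAT5B (LOC101168657), the factor best known for carrying the growth hormone signal in mammals, was at 10.2 and 11.2 against 10.1 and 11.3 FPKM. The feedback inhibitor gene cish was at 10.4 and 9.94 against 8.11 and 9.73 FPKM. The growth factor gene igf1 was below the minimum for testing, at 0.243 and 1.60 FPKM under SD and 0.484 and 0.479 under LD.

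None of the nearest named genes beside the 4 hormone loci passed the threshold. Before the start of somatotropin, 1059 bp away, the sodium channel alpha subunit gene LOC101171717 stood at 6.61 and 8.56 FPKM under SD and 4.94 and 4.93 under LD (difference -0.52, limma adjusted p = 0.789). On the other side, 1498 bp away, the cell cycle gene cdc27 was at 41.0 and 43.7 FPKM under SD and 47.3 and 45.6 under LD (difference 0.13, limma adjusted p = 0.804). The first was lower and the second higher in both LD libraries. Unnamed features that overlap the ends of the somatotropin feature were at 0.301 FPKM or less in every library. The gene after prolactin-1, dual specificity phosphatase 3 (LOC101172819), lies 1654 bp away and was at 119.7 and 134 FPKM under SD and 136 and 134 under LD, without the low LD 1 value of prolactin-1. The gene before it, LOC101166800, lies 31110 bp away and was at 0.164 FPKM or less in every library, below the minimum for testing.

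Around somatolactin, kirrel3 (34.04 and 36.9 against 25.6 and 35.0 FPKM) and LOC101159690 (3.11 and 2.70 against 2.92 and 2.19 FPKM) lie 218615 and 81399 bp away, and both overlapped between the groups. Around prl, hspa14 at 2546 bp (3.45 and 3.86 against 2.98 and 4.13 FPKM) and the beta-2-microglobulin gene LOC101174715 at 9027 bp (75.7 and 78.3 against 91.6 and 73.1 FPKM) overlapped as well. The unnamed features over somatolactin and prl were listed at 0.

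Genes whose profile over the 4 libraries was most like that of somatotropin were low in LD by construction of the measure, which is the root mean square difference of log2(FPKM + 1) deviations. The nearest was chrdl2, a chordin-like gene, at 0.15, where the median over all tested genes was 0.86. It stood at 4.59 and 3.71 FPKM under SD and 0.238 and 0.321 under LD. Next came LOC101173989, described as an immunoglobulin lambda variable chain, at 0.21 (2.86 and 3.77 against 0.408 and 0.0874 FPKM), and the arrestin domain gene LOC101167126 at 0.23 (8.98 and 12.02 against 1.68 and 1.83 FPKM). The unnamed feature MEDAKA060523 and the acyltransferase gene LOC101156981 followed at 0.24 and 0.26. All were far less abundant than somatotropin, so the added 1 FPKM shrank their differences on this scale. Their plain group means were 4.89-fold to 14.8-fold lower in LD, against 3.32-fold for somatotropin. The likeness is thus not one of fold change. None of the 5 passed the threshold (limma adjusted p between 0.114 and 0.62).

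The profiles nearest to somatolactin belonged to unnamed features, MEDAKA033034 at 0.03, MEDAKA063374 at 0.05 and MEDAKA027043 at 0.06, where the median over all tested genes was 0.45. Each had a mean of 4.47 FPKM or less, so likeness here too is on the log2(FPKM + 1) scale and not in fold change. Nearest to prolactin-1 were MEDAKA084666 at 0.05, the perilipin-2-like gene LOC101171360 at 0.08 and MEDAKA064426 at 0.10, with a median of 0.46. The perilipin-2-like gene, named for a protein of lipid droplets, was at 3.997 and 3.85 FPKM under SD, with 1.09 for LD 1 and 3.16 for LD 2. It shared the low value of LD 1, but its plain group means differed 1.85-fold, against 1.43-fold for prolactin-1.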

How the data were processed

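The data are a table of FPKM values (fragments per kilobase of feature, scaled to library size) that the authors deposited for 4 libraries of polyadenylated RNA, with a BLAST hit beside each feature. HISAT2 2.0.5 and StringTie 1.3.3b are listed, per the submitters' processing notes, without their settings. No source used here gives the genome build.

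Of 93896 features, 52142 had a hit, and the gene tag was used for the 46410 that overlap their hit. FPKM was summed per gene ID. All gene IDs were found in a RefSeq gene table. LD and SD, with 2 libraries each, were compared with limma 3.58.1 (R 4.3.3, mean-variance trend, Benjamini-Hochberg threshold 0.05) on log2(FPKM + 1), for genes whose mean FPKM was 1 or more. A fold change on this scale understates the change of low genes. The fit was checked on simulated data, drawn independently per gene and library with the variances of the fit itself. Such a check does not cover technical replicates, errors shared between genes or steps at low FPKM. Ratios between members were tested by exact permutation. Between 9.13% and 9.92% of low values fell on whole steps (within 0.02 steps, below 20 steps), so counts were not rebuilt and the true depth, and any counting interval, is unknown.

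Named genes are the 4 members, all receptors, the genes of each list past the threshold plus the 3 with the highest mean, the nearest named gene on each side of each member, and the 5 or 3 most alike profiles. A gene of the signalling list that this rule names is not reported here. Genes outside this rule are said to be so, except for markers and lhb. The members, lists and tests were chosen with earlier results of these data known. Alternatives covered the pseudocount, the filter, the trend, the scaling, summing, the gene tag, a replicate block and leaving out each library.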

Additional observations from a re-analysis of the deposited data

How the results depend on the processing

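The somatotropin difference kept its direction in all 15 alternatives and its call in 8, among them both pituitary scalings, whose p-values overstate the evidence. It was -1.73 but no longer called with no filter (limma adjusted p = 0.439), with limma without trend (0.0571) and with the replicate block (0.213). With 1 library left out it was -1.76 to -1.69, never called, and the lone library is then assumed to vary like the others. Samples with the same number did not deviate together across genes as a whole (r = 0.0231). This 1 correlation cannot show whether some genes share a batch by number. Somatolactin and prolactin-1 stayed lower and uncalled in 15 alternatives each. The prl difference ran from -0.039 (without SD 2) to 1.41 with 1 library left out and was 1.65 with a pseudocount of 0.1. The ratio of somatolactin to prolactin-1 ran from -0.52 to 0.085, at 0.034 without SD 2 and 0.085 without LD 2. The cause was not tested. The limma count of called genes, 2, was 1 with a pseudocount of 0.1, 1 with the gene tag alone, 5 without trend, and 0 to 2 with 1 library left out. It was 0 with no filter and with the block, where 1925 and 1168 genes had an unadjusted p under 0.05. It was 0 without SD 1 and without LD 2, with 1051 and 917 such genes. Scaled to pituitary genes it was 203 (169 higher, 34 lower), and scaled to pomc, an alternative chosen after seeing the data, 173 (127 higher, 46 lower). Both counts are overstated, since limma treats a scaling error shared by all genes as independent. Under these scalings the median of all tested genes was itself 0.38 and 0.18. List medians were then 0.26 and 0.092 for receptors, 0.39 and 0.17 for regulators and 0.30 and 0.12 for signalling. Those of lineage factors were 0.047 and -0.15, and those of other hormones 0.063 and -0.16. With 1 library left out the list medians, unscaled, ran from -0.17 to 0.075 for receptors, from -0.10 to -0.026 for signalling and from -0.59 to 0.11 for other hormones.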
